A study of Mus musculus with 4 samples.

Results

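The transcription factor p53, encoded by Trp53, and 9 genes of its pathway were followed in sorted bone marrow stem and progenitor cells that had lost Cpt1a and in control cells. The labels call the cells ltHSC (long-term hematopoietic stem cells, HSCs), while the study's text calls them HSPCs, which also takes in progenitors. The 10 genes were taken by symbol from 55401 gene models: Trp53, its inhibitors Mdm2 and Mdm4, and the p53 target genes Ccng1, Eda2r, Zmat3, Phlda3, Sesn2, Gadd45a and Trp53inp1. Cell cycle inhibitors and the Bcl2 family were left out. The KO group held 2 libraries from mice whose floxed Cpt1a was removed by Cre under the Vav1 promoter, which is active throughout the blood system. The Control group held 2 libraries that the labels call WT and that the study's methods describe as Cpt1a fl/fl, and which of these the animals were was not settled here. Adult mice on a C57BL/6, CD45.2 background were used, and the labels give no treatment for either group. Cells were sorted from bone marrow, and no label says that the replicates were separate animals, so the p-values measure only the spread between these libraries, which may be technical.

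p53 is held at a low protein level by MDM2, a ubiquitin ligase that marks it for destruction, and by the related MDM4, which binds and silences its activation domain. DNA damage and other stresses release it, and it then binds paired copies of a short motif near its target genes, among them Mdm2 itself, which closes a feedback loop. In HSCs the pathway is known for restraining entry into the cell cycle and for removing damaged stem cells. Much of this control acts on the protein, so transcript levels of Trp53 do not measure p53 activity, and the target genes are the usual readout at the RNA level.

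The 4 libraries held between 20589218 and 34083159 expected counts, and both KO libraries were deeper than both Control libraries. Cpt1a, the enzyme that couples long-chain fatty acids to carnitine for mitochondrial oxidation, stood at 11.5 and 19.2 TPM (a level scaled for transcript length and for depth) in the KO libraries, against 37.0 and 35.6 TPM in the Control libraries. Its log2 fold change was -1.60 (SE 0.152, edgeR adjusted p = 0.00695), and the call was lost when effective lengths entered as an offset (-1.26, adjusted p = 0.367). HSC marker transcripts were present in every library (Kit between 232 and 275 TPM, Hlf between 73.0 and 86.3 TPM), and those of T cells summed to at most 1.54 TPM. Cd34, which LT-HSCs largely lack, stood between 359 and 524 TPM, Slamf1 between 2.88 and 4.83 TPM and the myeloid enzyme gene Mpo between 1639 and 2959 TPM, so the markers go against a pure LT-HSC population. Of the 10 HSC markers edgeR called none and DESeq2 called 1, Mecom, lower in KO (log2 fold change -0.78, DESeq2 adjusted p = 0.0279), beside 3.24% of all genes. In edgeR the log2 fold change of Mecom was -0.35 without Control replicate 2 and -1.10 without Control replicate 1. Transcripts of other lineages differed between the groups. Beside the calls that follow, edgeR called 0.451% of all genes tested higher and 0.212% lower in KO. DESeq2 called 3.95% higher and 3.24% lower. Summed TPM of 9 B lineage markers was 629 and 437 in KO, against 58.2 and 91.05 in Control, and all 9 passed the edgeR test. Mast cell markers summed to 333 and 416 TPM in KO, against 50.2 and 23.04 TPM in Control, with 4 of 6 called higher by edgeR (5 by DESeq2). Cma1 and Tpsb2 had 0 counts in Control, and Mcpt4 had 1 and 0. These genes passed the filter on low counts through their KO libraries alone, so that their place above Control was fixed by the filter. Erythroid markers summed to 289 and 338 TPM in KO, against 953 and 804 TPM in Control, with 5 of 9 called lower by edgeR (8 by DESeq2). Neutrophil markers summed to 5876 and 5949 TPM in KO, against 10927 and 7424 TPM in Control, and edgeR called 1 of 8, Elane, lower (3 by DESeq2). In addition, 11 immediate early genes summed to 501 and 408 TPM in KO, against 645 and 7127 TPM in Control, the last being Control replicate 2. Neither edgeR nor DESeq2 called any of the 10 tested. For 9 of these, both KO libraries lay below both Control libraries in TPM, as did 16.8% of all genes tested. Without Control replicate 2 the log2 fold changes of Egr1, Junb and Nr4a1 were -1.24, -0.83 and -0.85. The part of these cells and of this library in the results on the p53 pathway was not tested, and in bulk samples fewer cells of a type and less RNA per cell cannot be told apart.

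Promoters of the p53 pathway genes were read for the p53 motif to show where the best matches lie. The search used the p53 half-site, 10 bases on either strand with no mismatch, over the 250 bases before and the 50 bases after each start site in the RefSeq promoter set (GRCm38.p6). A half-site was found in 4 of the 9 promoters listed for 8 members, and in 8.36% of all 32851 promoters. Zmat3 and Trp53inp1 had no promoter in this set and were not searched. A two-part site was made of adjacent half-sites with a spacer of at most 13 bases and no more than 2 mismatches. The core C and G of each half-site had to match. Such sites were found in the promoters of Ccng1 and Gadd45a, 2 in each and in part overlapping, and in 4.09% of all promoters. The promoters of these genes are shown 5′ to 3′ on the strand of the gene. In capitals is the two-part site with the fewest mismatches, or the first where they tie.
Ccng1, chr11:40755237-40755536, minus strand: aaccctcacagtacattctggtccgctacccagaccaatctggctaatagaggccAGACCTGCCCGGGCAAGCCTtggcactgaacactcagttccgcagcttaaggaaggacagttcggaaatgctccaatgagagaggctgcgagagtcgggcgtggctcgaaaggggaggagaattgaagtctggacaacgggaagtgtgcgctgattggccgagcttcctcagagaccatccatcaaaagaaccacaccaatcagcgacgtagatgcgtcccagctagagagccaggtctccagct
Gadd45a, chr6:67037358-67037657, minus strand: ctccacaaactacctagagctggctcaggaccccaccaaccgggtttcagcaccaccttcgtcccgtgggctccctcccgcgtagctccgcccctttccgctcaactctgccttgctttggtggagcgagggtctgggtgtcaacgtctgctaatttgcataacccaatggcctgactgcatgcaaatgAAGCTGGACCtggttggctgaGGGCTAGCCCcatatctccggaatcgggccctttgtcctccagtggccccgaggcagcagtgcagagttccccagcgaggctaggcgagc
In Ccng1 the marked site begins 195 bases before the start, has no spacer and carries 1 mismatch. In Gadd45a it begins 61 bases before the start, with a spacer of 11 bases in lower case and 2 mismatches. Trp53 and Mdm2 each hold a single half-site, GGACTTGCCC at 75 bases and GAACTTGCCT at 186 bases before the start. The established p53 response elements of Mdm2 and Gadd45a lie in introns, outside the windows searched. A match in letters is a description and does not show binding, and the absence of one says nothing about p53.

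The 10 genes spanned a wide range of levels. Ordered by the mean TPM of the 4 libraries, Trp53 came first at 218 TPM, above 96.0% of the genes tested, followed by Mdm4 (77.3 TPM), Mdm2 (44.5 TPM), Ccng1 (31.4 TPM), Gadd45a (30.4 TPM), Trp53inp1 (12.6 TPM), Phlda3 (7.77 TPM), Sesn2 (5.55 TPM), Zmat3 (1.84 TPM) and Eda2r (0.247 TPM, above 2.32% of the genes tested). The ranges of the 4 libraries separated Trp53 from Mdm4, Mdm4 from Mdm2, Sesn2 from Zmat3 and Zmat3 from Eda2r. The other neighbours in this order overlapped, so that the order from Mdm2 to Sesn2 is not resolved step by step.

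**Figure D1:**
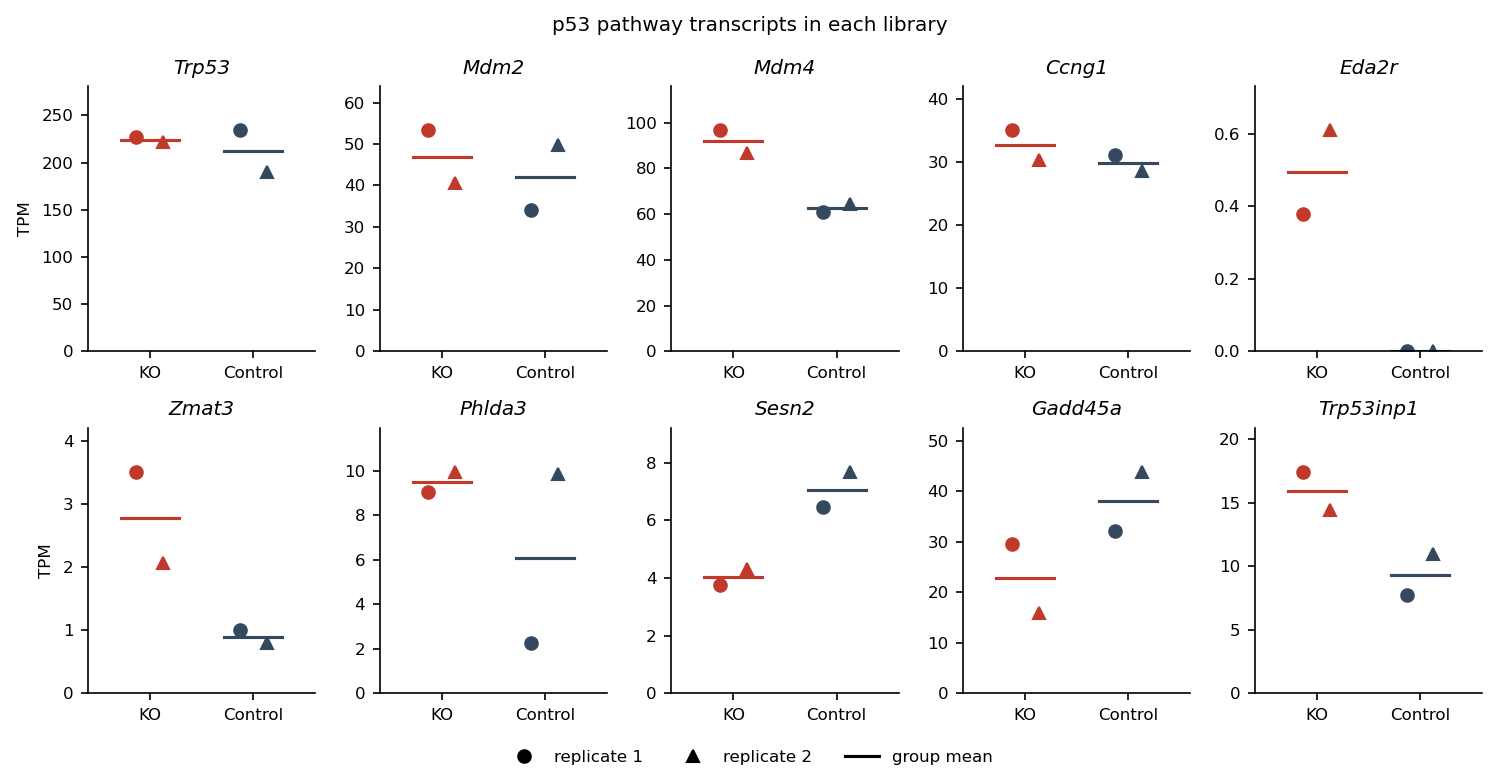
TPM of each p53 pathway gene in the 2 KO libraries (red, left) and the 2 Control libraries (dark, right). Circles are replicate 1, triangles replicate 2 and lines group means, and each panel has its own axis from 0. Zmat3 and Trp53inp1 lie higher and Sesn2 lies lower in both KO libraries, while Trp53 and Ccng1 overlap.

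None of the 10 genes passed edgeR's quasi-likelihood test at an adjusted p under 0.05, in either direction. Over the 14635 genes tested, 66 (0.451%) were called higher and 31 (0.212%) were called lower in KO. At an unadjusted p under 0.05, Zmat3 and Trp53inp1 were higher and Sesn2 was lower, which makes 2 of 10 against a background of 5.81% higher and 1 of 10 against 4.61% lower. DESeq2, the tool the study used, called the same 3 genes in the same directions after adjustment, against backgrounds of 3.95% higher and 3.24% lower. The libraries of the groups did not overlap in TPM for 6 of the 10 genes. Mdm4, Eda2r, Zmat3 and Trp53inp1 lay above Control in both KO libraries, as did 23.1% of all genes tested, but Eda2r passed the filter on low counts through its KO libraries alone, so that its place above Control was fixed by the filter. Sesn2 and Gadd45a lay below Control in both, as did 16.8%. The median log2 fold change of the 10 genes was 0.18, beside 0.0087 over all genes tested. It was the same with Eda2r taken at its fold over a floor of 3 counts in Control.

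**Figure D2:**
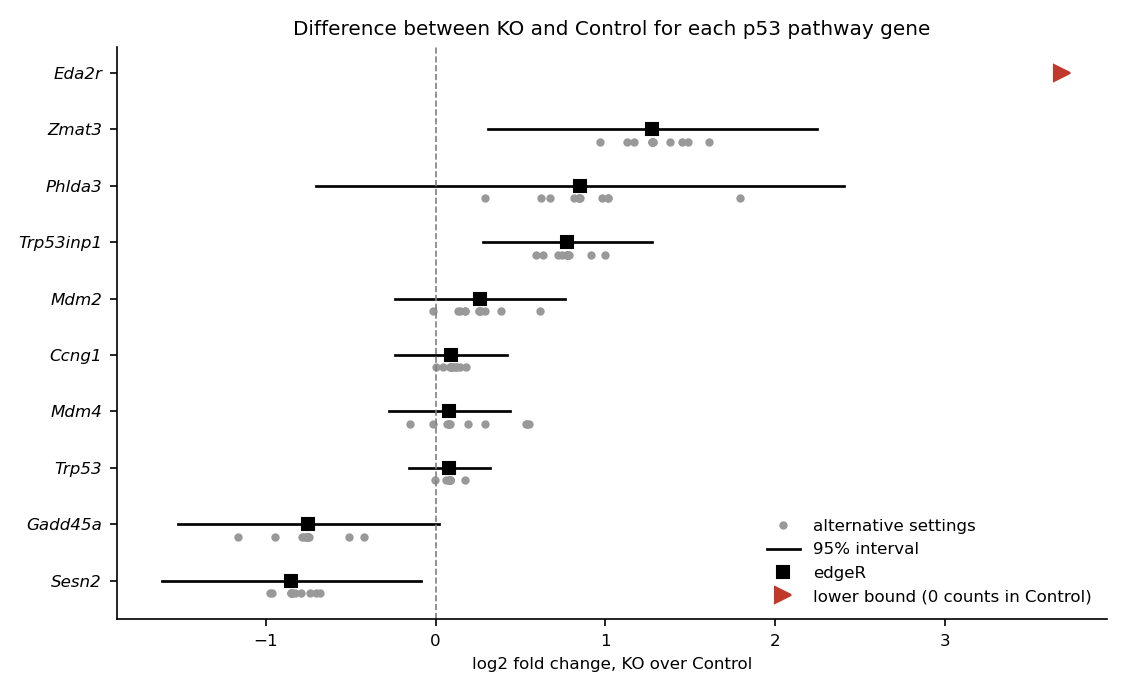
Log2 fold change of KO over Control for each gene (squares, edgeR) with its 95% interval (lines) and the values under the alternative settings (grey points). Intervals of Zmat3 and Trp53inp1 lie above 0 and that of Sesn2 lies below 0. They are not adjusted for the number of genes tested, and edgeR called none of these genes after adjustment. The triangle, labelled lower bound, marks the fold of Eda2r over a floor of 3 counts, as Eda2r had no count in Control. It carries no error.

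Trp53 itself (GRCm38 chromosome 11, 69580359 to 69591873, plus strand) did not differ beyond the spread between libraries. It stood at 227 and 222 TPM in KO, against 234 and 190.4 TPM in Control (expected counts 8519 and 8353, against 5140 and 5043). Both KO values lay between the Control values. The log2 fold change was 0.08 (SE 0.103, edgeR adjusted p = 0.896), with a 95% interval of -0.16 to 0.32. The p53 relatives Trp63 and Trp73 were listed at 0 TPM in all 4 libraries.

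The inhibitors of p53 gave different pictures. Mdm2, which is both the main ligase for p53 and one of its targets (chromosome 10, 117688875 to 117710758, minus strand), stood at 53.3 and 40.7 TPM in KO, against 34.2 and 49.7 TPM in Control. The groups overlapped, with Control replicate 1 lowest and KO replicate 1 highest. Its log2 fold change was 0.26 (SE 0.217, edgeR adjusted p = 0.771), and without Control replicate 2 it was 0.62 (adjusted p = 0.133), whereas without Control replicate 1 it was -0.018.
Mdm4, the inhibitor without ligase activity of its own (chromosome 1, 132959484 to 133030561, minus strand), stood at 96.7 and 86.9 TPM in KO, against 61.0 and 64.4 TPM in Control. In TPM, both KO libraries lay above both Control libraries. Counts did not show this separation, at 273 and 199 CPM (counts scaled to library size) in KO, against 207 and 235 CPM in Control. Their log2 fold change was 0.08 (SE 0.154, edgeR adjusted p = 0.945). The scales part because the effective length, the mean length of the gene's transcripts weighted by their estimated use and adjusted for fragment length, was 3969 and 3179 bases in KO, against 4653 and 5001 bases in Control. Among all genes tested, 11.2% had a shift in effective length at least as large. Once these lengths were entered as an offset, the log2 fold change was 0.53 (edgeR adjusted p = 0.388), and limma on log2(TPM + 1) gave 0.54 (adjusted p = 0.464). So the reading of Mdm4 rests on how RSEM divided its reads among its 14 annotated transcripts, and no scale gave a call. Part of its sequence, 9.38% of its 50-base words, is shared, chiefly with the pseudogene Mdm4-ps.

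**Figure D3:**
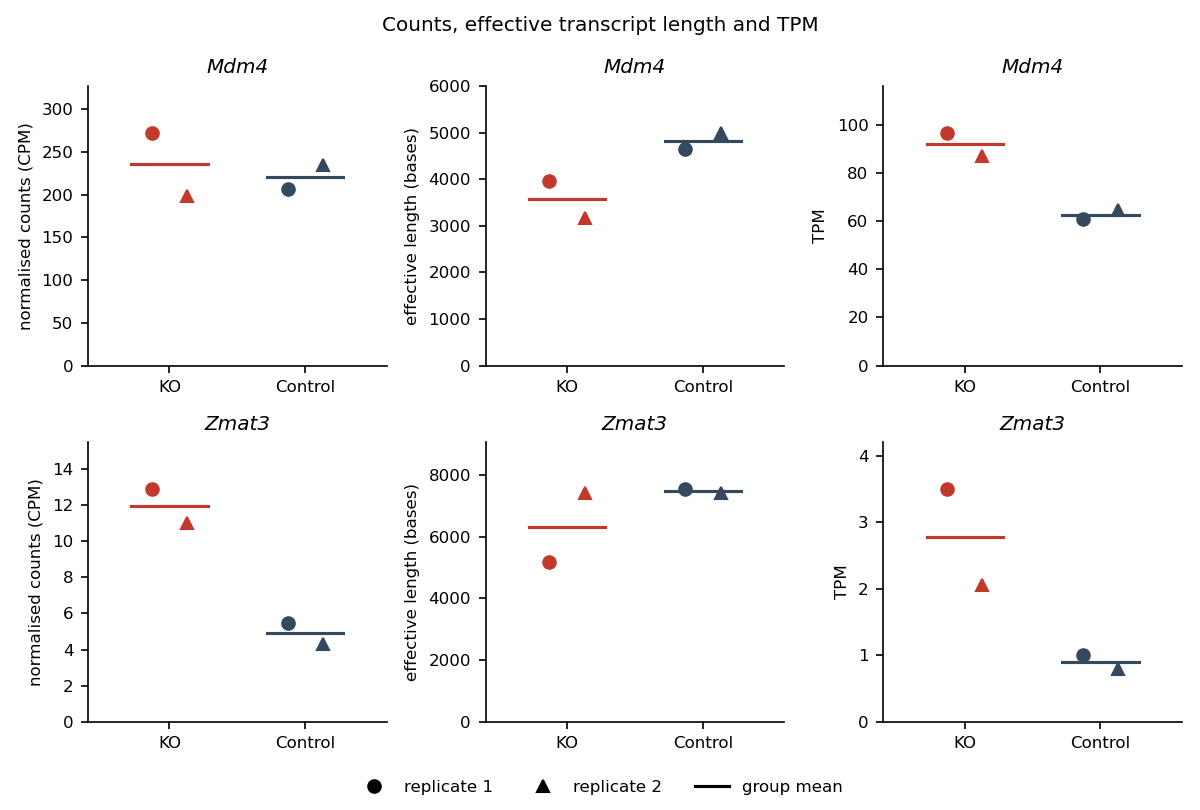
CPM, effective length in bases and TPM of Mdm4 (top) and Zmat3 (bottom) in the KO libraries (red, left) and the Control libraries (dark, right), with circles for replicate 1, triangles for replicate 2 and lines for group means. Mdm4 overlaps in counts but separates in effective length and TPM, while Zmat3 separates in counts and in TPM.

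The target genes that leaned upward in KO were Trp53inp1, Zmat3, Eda2r and Phlda3. Trp53inp1, a nuclear protein of stress that helps p53 switch on genes of cell death and also acts in autophagy (chromosome 4, 11156431 to 11174379, plus strand), had the smallest p of the 10. It stood at 17.4 and 14.4 TPM in KO, against 7.71 and 11.01 TPM in Control (expected counts 2170 and 1759, against 597 and 880). Every KO value lay above every Control value. Its log2 fold change was 0.78 (SE 0.216, 95% interval 0.28 to 1.27), and edgeR gave an adjusted p of 0.277. DESeq2 gave an adjusted p of 0.00373. Without Control replicate 2, edgeR called the gene (log2 fold change 0.998, adjusted p = 0.0404), and over the 12 alternatives its adjusted p ran between 0.00373 and 0.967, with a positive log2 fold change in each.
Zmat3, a zinc finger RNA-binding protein that controls splicing downstream of p53 (chromosome 3, 32334792 to 32366014, minus strand), had the largest log2 fold change of the 9 genes with counts in both groups. Its level was 3.50 and 2.06 TPM in KO, against 1.0 and 0.80 TPM in Control (expected counts 439 and 373, against 113 and 100). The groups were apart on both scales, and the KO values differed more from each other in TPM than in counts, with effective lengths of 5176 and 7410 bases in KO, against 7542 and 7410 bases in Control. The groups differed by 1.28 on the log2 scale (SE 0.418, 95% interval 0.31 to 2.25), with an adjusted p of 0.364 in edgeR. DESeq2 gave an adjusted p of 0.0109, and over the 12 alternatives the log2 fold change stayed between 0.97 and 1.61.
Eda2r, the receptor for the A2 form of ectodysplasin and a member of the tumor necrosis factor receptor family (chromosome X, 97333840 to 97377216, minus strand), was close to the limit of detection. It had 22 and 38 expected counts in KO (0.38 and 0.61 TPM), against 0 and 0 in Control. Taking 3 counts over the Control group as the floor, its KO counts together stood 12.9-fold above that floor relative to library size. This ratio carries no error between libraries, and the filter on low counts fixed the place of Eda2r above Control. The edgeR test gave an adjusted p of 0.507, and DESeq2 an adjusted p of 0.136, so the difference was not called at this depth.
Phlda3, a pleckstrin homology protein that holds back AKT at the membrane (chromosome 1, 135766119 to 135769136, plus strand), stood at 9.03 and 9.93 TPM in KO, against 2.26 and 9.87 TPM in Control. Only Control replicate 1 was low, and Control replicate 2 was level with the KO libraries. Its log2 fold change was 0.85 with an SE of 0.673 (edgeR adjusted p = 0.750), and it was 0.29 without Control replicate 1 and 1.79 without Control replicate 2.

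The promoter of Ccng1, which encodes cyclin G1, held the closest match to a full p53 site among the members' promoters searched. Ccng1 (chromosome 11, 40748552 to 40755311, minus strand) showed little spread. It stood at 35.1 and 30.4 TPM in KO, against 31.2 and 28.7 TPM in Control, and the groups overlapped. The log2 fold change was 0.09 (SE 0.143, 95% interval -0.24 to 0.42, edgeR adjusted p = 0.927).

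Sesn2 and Gadd45a leaned downward. Sesn2, a sestrin that restrains mTORC1 and responds to amino acid shortage as well as to p53 (chromosome 4, 132492032 to 132510501, minus strand), stood at 3.75 and 4.30 TPM in KO, against 6.47 and 7.67 TPM in Control (expected counts 292 and 337, against 312 and 418). Both KO libraries were below both Control libraries. Its log2 fold change was -0.85 (SE 0.330, 95% interval -1.61 to -0.088), with an adjusted p of 0.440 in edgeR and an adjusted p of 0.0461 in DESeq2. Over the 12 alternatives it stayed between -0.98 and -0.68.
Gadd45a, a damage-induced protein that acts in repair and in stress kinase signalling (chromosome 6, 67035096 to 67037457, minus strand), stood at 29.6 and 15.95 TPM in KO, against 32.2 and 43.8 TPM in Control. The groups did not overlap, but KO replicate 1 and Control replicate 1 were close together. Its log2 fold change was -0.75 (SE 0.332, 95% interval -1.52 to 0.017, edgeR adjusted p = 0.492), and it ran from -1.16 to -0.42 as single libraries were left out. Of its 50-base words 21.8% are shared only with the opposite strand, where E230016M11Rik overlaps it at no more than 2.91 TPM. Whether counting used the strand of the reads is not stated by any source used here.

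The other genes of the pathway were described from lists. Of 40 further p53 target genes 39 were tested and edgeR called none. The log2 fold change was positive for 25 and negative for 14 (median 0.076), beside 7452 and 7183 of all genes tested. At an unadjusted p under 0.05, 3 of the 39 were higher in KO, beside 5.81% of all genes tested. These were Tap1 (the peptide transporter that loads MHC class I), Sulf2 and Aen. Another 3 of the 39 were lower, beside 4.61% of all genes tested: Steap3, Lif and Plk3. Lif stood at 0.07 and 0 TPM in KO, against 0.83 and 2.88 TPM in Control. Plk3 stood at 0.22 and 0 TPM in KO, against 2.86 and 3.30 TPM in Control. Both passed the filter on low counts through their Control libraries alone, so that their place below Control was fixed by the filter. Sulf2, Aen, Plk3 and Gdf15 are named after their values were seen. Of the genes at an unadjusted p under 0.05, DESeq2 called all except Aen, against backgrounds of 3.95% higher and 3.24% lower. It also called Gdf15, a stress cytokine that the filter on low counts kept from edgeR's test (0 and 0 TPM in KO, against 0.12 and 3.95 TPM in Control). Steap3, an endosomal iron reductase used by erythroid cells, had the smallest p and stood at 25.04 and 25.2 TPM in KO, against 41.1 and 40.01 TPM in Control (log2 fold change -0.65, SE 0.149, edgeR adjusted p = 0.186). Tap1 stood at 137 and 175 TPM in KO, against 103.8 and 109.6 TPM in Control (log2 fold change 0.39, SE 0.110, edgeR adjusted p = 0.289).
Among the p53 targets of the cell cycle and of the Bcl2 family, none of 4 was called by either tool or had an unadjusted p under 0.05. Cdkn1a, the cell cycle inhibitor p21, stood at 24.1 and 19.0 TPM in KO, against 2.22 and 14.9 TPM in Control (log2 fold change 1.32, SE 0.670, edgeR adjusted p = 0.546). Without Control replicate 2 its log2 fold change was 3.14 and edgeR called it (adjusted p = 0.000977), and without Control replicate 1 it was 0.55 (adjusted p = 0.465). As with Phlda3, Control replicate 1 was the low library. Bax, the pore-forming death protein and the most abundant of the 4 (named after its values were seen), stood at 118 and 80.02 TPM in KO, against 100.2 and 85.8 TPM in Control, and its groups overlapped (log2 fold change 0.03, SE 0.238, edgeR adjusted p = 0.991). Bbc3, which encodes the death protein PUMA, had a log2 fold change of 0.87 (edgeR adjusted p = 0.574), with 0.32 without KO replicate 2 and 1.26 without KO replicate 1. Pmaip1, which encodes NOXA, had one of 1.38 (edgeR adjusted p = 0.677), with 0.75 without Control replicate 1 and 2.57 without Control replicate 2.
The lists of genes that act on p53 held no call. Of 16 genes of p53 turnover and its cofactors, edgeR passed none (none also at an unadjusted p under 0.05 and none by DESeq2), and the median log2 fold change was -0.013. Of 15 genes that sense damage upstream of p53, likewise none was called on any of these counts, with a median of 0.085. Chek1, a checkpoint kinase that acts on stalled replication, stood at 47.4 and 50.9 TPM in KO, against 24.4 and 30.5 TPM in Control (log2 fold change of the counts 0.33, SE 0.174, edgeR adjusted p = 0.557). As for Mdm4, its effective length was shorter in KO, at 1597 and 1377 bases, against 2351 and 1814 bases in Control, and an offset for length gave a log2 fold change of 0.82 (edgeR adjusted p = 0.478). Cdkn2a, whose ARF product blocks MDM2, stood at 1.56 and 2.72 TPM in KO (24 and 42 expected counts) and had no count in Control. Relative to library size, its KO counts together stood 14.2-fold above the same floor, again with no error attached. The gene was not called (edgeR adjusted p = 0.491). Like Eda2r, Cdkn2a passed the filter on low counts through its KO libraries alone, so that its place above Control was fixed by the filter.
Of 10 paralogues of the members, edgeR called none and DESeq2 called 1 higher, Ccng2, the relative of Ccng1, beside 3.95% of all genes. Ccng2 stood at 33.6 and 30.4 TPM in KO, against 19.4 and 22.02 TPM in Control (log2 fold change 0.51, SE 0.175, edgeR adjusted p = 0.401). For ATF4, the amino acid stress factor that also acts on Sesn2, 7 genes were tested, Atf4 itself among them. The median of the 6 targets was -0.51, and edgeR called none of the 7 while DESeq2 called 1 lower, Asns, beside 3.24% of all genes. Asns, asparagine synthetase, also the only one at an unadjusted p under 0.05, stood at 32.4 and 28.4 TPM in KO, against 57.4 and 47.7 TPM in Control (log2 fold change -0.79, SE 0.193, edgeR adjusted p = 0.215). Here too Control replicate 2 stood apart in the summed TPM of the list: 278 and 230 in KO, against 280 and 566 in Control. Not every gene rose in that library. Ppp1r15a stood at 47.2 TPM in Control replicate 1 and 247 TPM in Control replicate 2, while Asns was lower in Control replicate 2. Without that library the log2 fold change of Atf4 was -0.015, against -0.35 with all libraries, and that of Ppp1r15a was -0.56, against -2.18.
Several p53 targets that are also immediate early genes were set by a single library. Btg2, named after its values were seen, stood at 16.6 and 18.7 TPM in KO, against 20.1 and 138 TPM in Control, and Plk2, named likewise, at 4.92 and 2.93 TPM in KO, against 0.57 and 20.25 TPM in Control. The high value of each was Control replicate 2, as for Egr1 (18.7 and 14.8 TPM in KO, against 38.4 and 470 TPM in Control). Egr1 had a log2 fold change of -3.98 with all libraries (edgeR adjusted p = 0.627) and of -1.24 without Control replicate 2 (adjusted p = 0.00779). Trp53inp1, Mdm2, Phlda3 and Gadd45a were also higher in Control replicate 2 than in Control replicate 1, with ratios of 1.43, 1.45, 4.37 and 1.36 in TPM. Sesn2 and Mdm4 were so by less, with ratios of 1.19 and 1.06, while Trp53, Ccng1 and Zmat3 were lower there, with ratios of 0.813, 0.919 and 0.800.

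**Figure D4:**
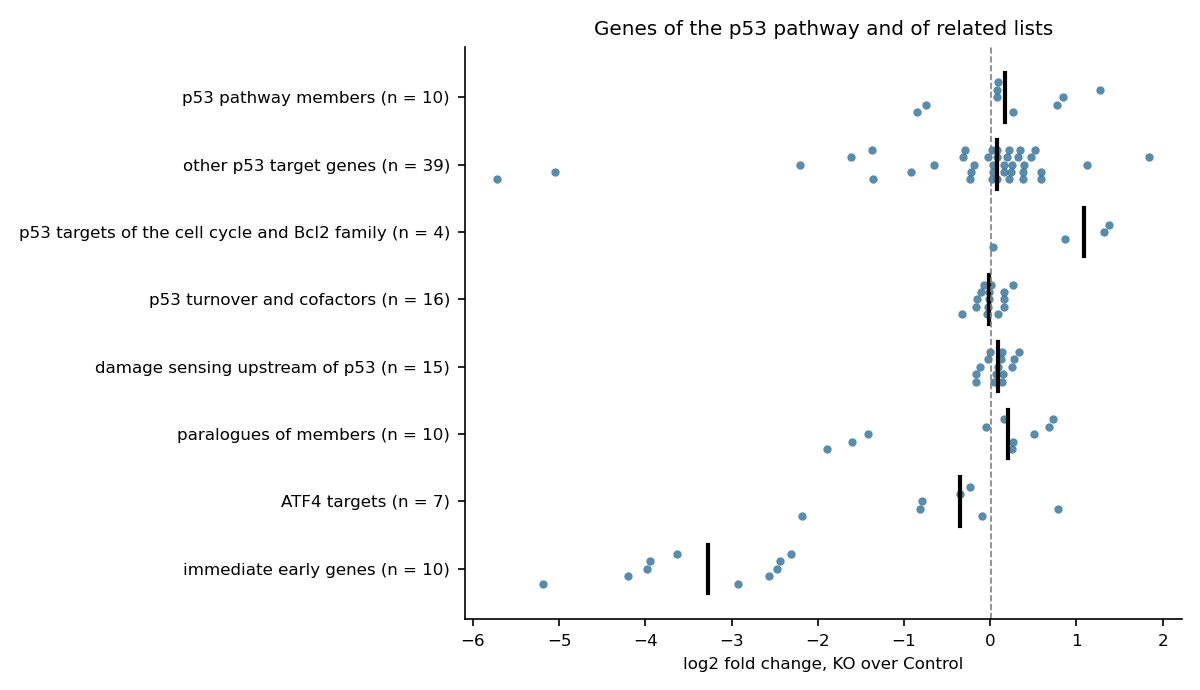
Log2 fold change of KO over Control (edgeR) for each gene tested in 8 lists, with the median of each list as a bar and that of all genes tested as a dashed line. Eda2r and Cdkn2a, with no count in Control, are counted but not drawn. The p53 lists spread around 0, except that 3 of the 4 genes of the cell cycle and Bcl2 family lie well above it and Bax lies at it. The immediate early genes lie between -5.19 and -2.31 and differ mainly through Control replicate 2. In TPM, 9 of the 10 were below both Control libraries in both KO libraries.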

How the data were processed

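RNA from sorted bone marrow HSCs was selected for polyA, and libraries were made with a directional kit. STAR, RSEM and the mm10 build are named in the submitters' processing notes, with versions, annotation and strand setting not stated by any source used here. For each gene the authors deposited RSEM expected counts, TPM and, as other columns, effective length and posterior mean counts. Gene IDs were matched to GENCODE M21 symbols (55141 of 55401 gene models, GRCm38). Authors' comparisons were not used.

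Expected counts were rounded and tested with edgeR 4.0.16 (R 4.3.3; TMM, filterByExpr with a count minimum of 10, robust quasi-likelihood fit, group as the only term), which kept 14635 genes, including all 10 members, of which Eda2r passed through its KO libraries. p-values were two-sided and adjusted by Benjamini-Hochberg over all genes tested, with 0.05 as threshold. SEs were derived from this fit, as the size of the log2 fold change without shrinkage divided by the square root of the test's F statistic. The 95% intervals are centred on that log2 fold change, while the log2 fold changes printed are the fit's values drawn toward 0. An exact permutation test of 2 against 2 libraries cannot go below p = 0.333 and was not used. TPM are printed with no pseudocount, and DESeq2 1.42.0 and limma 3.58.1 (pseudocount 1 or 0.1) were alternatives. The fits were also run on simulated counts with a dispersion (spread between replicates beyond counting noise) of 0.05. The common dispersion of these libraries was 0.222, so that run does not show how the fits perform on them. All 10 members, up to 3 genes with the smallest p of each other list, and Cpt1a were named, and Kit, Hlf, Slamf1, Bax, Trp63, Trp73, Sulf2, Aen, Plk3, Gdf15, Btg2 and Plk2 were named after their values were seen. Members and lists were chosen with earlier results of these data known. Depth was 34083159 and 33909781 expected counts in KO, against 20589218 and 23291747 in Control, and intervals cover the spread between libraries only.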

Additional observations from a re-analysis of the deposited data

How the results depend on the processing

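Across the 12 alternative fits, 112 values for the 10 genes kept their direction and their side of the threshold, 4 became significant and 4 reversed. The 4 gains were Trp53inp1, Zmat3 and Sesn2 with DESeq2 and Trp53inp1 without Control replicate 2. The reversals were Trp53 at -0.0042 without Control replicate 2, Mdm2 at -0.018 and Mdm4 at -0.017 without Control replicate 1, and Mdm4 at -0.15 without KO replicate 1. With single libraries left out, the values ran up to 0.17 for Trp53, 0.62 for Mdm2 and 0.29 for Mdm4. Trp53bp2, a p53 cofactor, reversed to -0.17 with effective lengths as an offset, -0.038 with limma on log2(TPM + 1) and -0.034 on log2(TPM + 0.1). For the other named genes 391 values kept their call, 24 gained and 26 lost it. Members called higher and lower numbered 2 and 1 with DESeq2, against 0 and 0 with edgeR. Leaving out single libraries gave 0 to 1 higher and 0 lower, and an unadjusted p with over 2-fold gave 1 higher, Zmat3. Over all genes, 66 higher and 31 lower became 613 and 503 with DESeq2, 111 and 85 with no filter on low counts, 3 and 1 when lengths entered as an offset, 5 and 0 in limma on log2(TPM + 1), 0 and 0 on log2(TPM + 0.1), and 357 and 195 at an unadjusted p with over 2-fold. Leaving out 1 library gave 24 to 238 higher and 18 to 144 lower. The causes were not tested. The difference between replicates 1 and 2 in KO had a correlation of -0.015 with that in Control over the genes tested. With 1 such difference in each group, this cannot show whether same-numbered libraries were paired. The replicate block gave 62 higher and 36 lower over all genes and 0 and 0 among the members. With 2 libraries a group, and Eda2r at 60 counts in all, small differences were not detectable.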
